A study of Mus musculus with 6 samples.

Results

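Kit, Flt3, Igf1r, Il6ra, Il6st and Cd34 encode 5 cytokine or growth factor receptor chains and 1 surface sialomucin of blood progenitors. They were picked by gene symbol in the platform annotation, and all 6 were found, with 15 probe sets of their own (sets of short oligonucleotides that match 1 gene) among 45101 on the array and 6 of 18193 named genes. The 6 arrays hold RNA from cultured bone marrow cells of C57BL/6 mice. GM-TNFa-DC (2 arrays) are dendritic cells, which take up antigen and present it to T cells, derived from GM-MPP cultures with GM-CSF and TNFa. GM-DC (2 arrays) were derived in the same way with GM-CSF alone, and GM-MPP (2 arrays) are the multipotent progenitors themselves, cultured with stem cell cytokines and GM-CSF. GM-CSF, a myeloid growth factor, was therefore part of all 3 conditions. The labels name neither the stem cell cytokines nor any dose or time, and leave it unsaid whether both arrays of a group stem from different cultures or mice. The p-values therefore cover only the spread among these arrays, and that spread may be technical. No label mentions a sort of the cells.

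Kit and Flt3 are related receptor tyrosine kinases of class III. Kit binds stem cell factor (the product of Kitl) and sustains stem cells, progenitors and mast cells, and Flt3 binds Flt3 ligand and drives dendritic cell production in the mouse. Igf1r is the tyrosine kinase receptor for insulin-like growth factors. Il6ra binds interleukin-6 and then needs Il6st, the gp130 chain, which signals through JAK kinases and STAT3 and is shared with other cytokines such as leukaemia inhibitory factor and oncostatin M. Cd34 is a heavily glycosylated membrane protein used to mark early progenitors.

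The promoters of 4 of the genes are shown because their transcripts fell into 2 patterns below, Cd34 and Flt3 lower in dendritic cells on both arrays, Kit and Il6st split by array number. Each run is the 250 bases before the annotated gene start, 5′ to 3′ on the gene's strand, from RefSeq (GRCm38.p6): chr1:194938571-194938820 (plus) for Cd34, chr5:147400490-147400739 (minus) for Flt3, chr5:75574737-75574986 (plus) for Kit and chr13:112463820-112464069 (plus) for Il6st. Capitals mark GGAA on either strand (TTCC on the strand shown), the core letters bound by Ets factors such as PU.1.
Cd34: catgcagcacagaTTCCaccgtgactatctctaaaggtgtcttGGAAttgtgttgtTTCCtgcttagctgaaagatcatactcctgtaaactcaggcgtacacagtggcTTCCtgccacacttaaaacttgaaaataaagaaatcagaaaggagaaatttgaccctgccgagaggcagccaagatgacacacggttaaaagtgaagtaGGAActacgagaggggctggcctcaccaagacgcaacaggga
Flt3: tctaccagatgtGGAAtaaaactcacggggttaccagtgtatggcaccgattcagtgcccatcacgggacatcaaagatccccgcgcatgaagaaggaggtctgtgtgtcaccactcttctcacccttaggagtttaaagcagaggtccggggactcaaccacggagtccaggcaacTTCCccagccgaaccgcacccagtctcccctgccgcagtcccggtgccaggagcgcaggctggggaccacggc
Kit: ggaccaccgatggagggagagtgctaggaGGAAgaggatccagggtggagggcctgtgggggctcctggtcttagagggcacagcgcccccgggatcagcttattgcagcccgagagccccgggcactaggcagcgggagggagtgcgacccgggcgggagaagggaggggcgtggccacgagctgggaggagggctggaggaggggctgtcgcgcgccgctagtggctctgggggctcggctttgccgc
Il6st: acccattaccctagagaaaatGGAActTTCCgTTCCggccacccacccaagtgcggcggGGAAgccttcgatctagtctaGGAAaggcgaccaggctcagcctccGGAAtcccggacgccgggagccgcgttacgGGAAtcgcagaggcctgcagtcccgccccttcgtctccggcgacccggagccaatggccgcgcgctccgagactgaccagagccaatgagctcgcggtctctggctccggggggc
GGAA occurred 5 times before Cd34, 2 times before Flt3, 1 time before Kit and 7 times before Il6st, and 93.4% of 27025 promoter windows of this length held it at least 1 time. The window before Cd34 was 46.4% G and C, against 59.2% for Flt3, 70.8% for Kit and 66.0% for Il6st and a median of 52.0% over all windows. On either strand, GATA was found 1 time before Cd34 and not before the other 3 (54.1% of all windows held it). TTCNNNGAA, the letters STAT dimers bind, was in none of the 4 windows (7.18% of all). It can overlap the GGAA letters. These letter matches describe the windows only.

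Values are log2 expression levels made with RMA, with array medians between 4.67 and 4.77. A gene was represented by its brightest probe set. The cell labels were checked on marker genes. All 12 dendritic cell markers were higher than in GM-MPP in both kinds of dendritic cell. Past the threshold were 10 in GM-TNFa-DC and 9 in GM-DC, where 2.77% and 1.87% of all genes rose. All 8 progenitor markers fell in both, against 4.26% and 2.63% of all genes (limma, Benjamini-Hochberg adjusted p under 0.05, as throughout). The progenitor markers include the granule protein genes Mpo, Elane, Prtn3 and Ctsg. All 9 measured neutrophil markers also had lower means in both. Of these, 3 passed in GM-TNFa-DC and 1 in GM-DC (4.26% and 2.63% of all genes fell). Their summed linear level on numbers 1 and 2 was 79780 and 87150 in GM-MPP, 5583 and 19240 in GM-TNFa-DC, and 16710 and 20810 in GM-DC. The check thus does not show that GM-MPP held only multipotent progenitors. Further facts of the series bear on the results. Over all probe sets, GM-TNFa-DC correlated with GM-DC at r = 0.9876 for number 1 and 0.9902 for number 2, above the 0.9606 within GM-TNFa-DC and 0.9695 within GM-DC. The pair of GM-MPP arrays correlated at 0.9876. Control transcripts added before labelling were brighter on number 1 in 24 of 24 probe sets of every group, with a mean ratio of 2.60 for GM-TNFa-DC, 2.16 for GM-DC and 2.39 for GM-MPP.

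**Figure D1:**
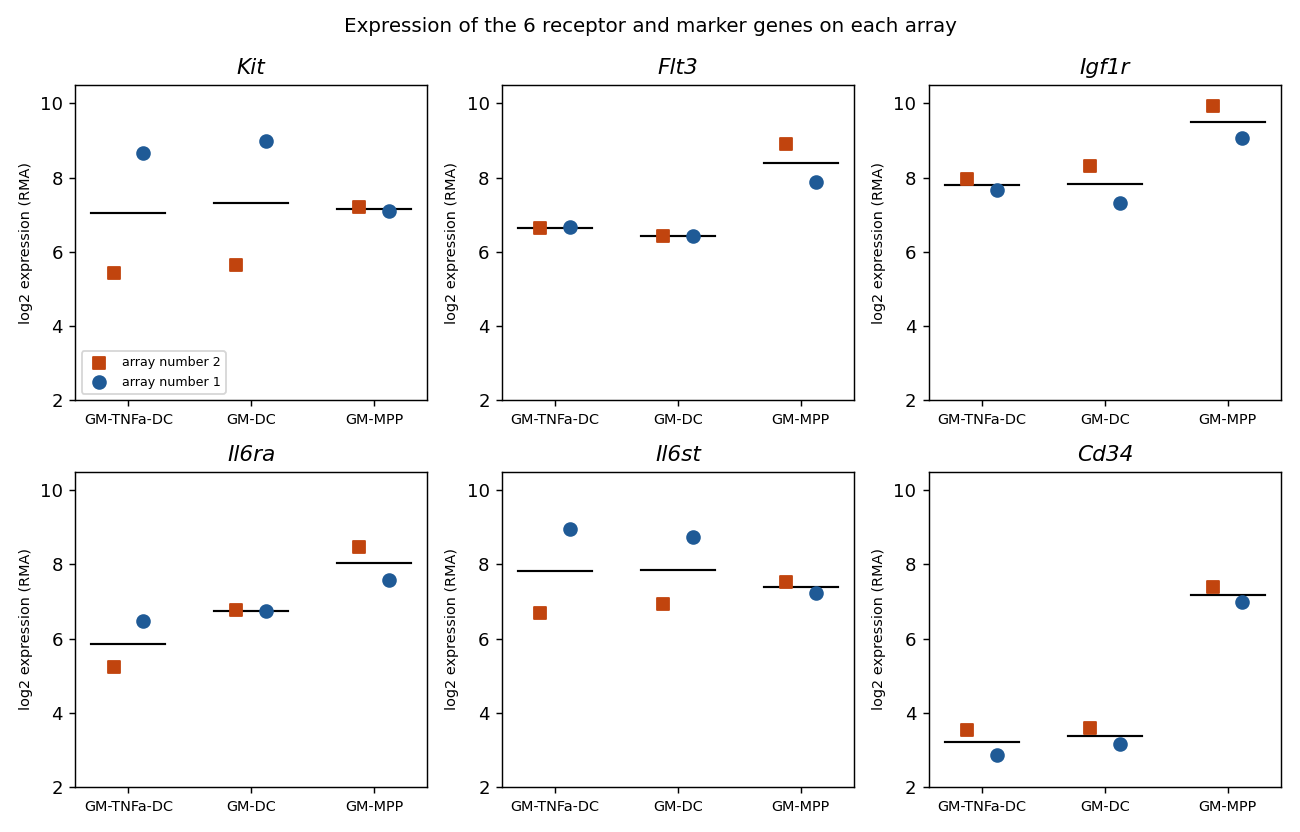
Log2 expression (RMA) of the brightest probe set of each gene on every array, with groups along the horizontal axis, orange squares for array number 2, blue circles for number 1 and a black line at the mean of each group. Cd34, Flt3, Igf1r and Il6ra lie lower on all 4 dendritic cell arrays than on both GM-MPP arrays, and Kit and Il6st are high on number 1 and low on number 2 of both dendritic cell groups.

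Against the progenitors, 4 of the 6 genes were lower on every dendritic cell array, and 2 of these, Cd34 and Flt3, fell past the threshold both in GM-TNFa-DC and in GM-DC. No member rose. Over all genes, 4.26% fell and 2.77% rose in GM-TNFa-DC, and 2.63% fell and 1.87% rose in GM-DC, so 2 of 6 is above the background share. That excess is no independent support, since the genes were chosen with earlier results of these data known. Cd34 is itself a marker of progenitors, and the Flt3 calls were marginal (below). Both arrays were below both GM-MPP arrays for 4 of 6 members in each comparison, against 26.1% of all genes in GM-TNFa-DC and 27.0% in GM-DC. The median log2 change of the 6 was -1.72 in GM-TNFa-DC and -1.48 in GM-DC, with 0.05 and 0.02 over all genes. Both comparisons use the same GM-MPP arrays, so they are not independent of each other. In such bulk samples, fewer cells of a type and less RNA per cell cannot be told apart.

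Cd34 had the largest change of the 6 genes. Its 1 probe set stood at 2.86 and 3.54 in GM-TNFa-DC, at 3.16 and 3.59 in GM-DC, and at 6.98 and 7.38 in GM-MPP (log2 levels on arrays 1 and 2). The dendritic cell arrays thus lay below the array medians, at percentiles 11.4 to 28.6 of their probe sets, and the progenitor arrays at percentiles 75.5 and 79.8. Cd34 fell by 3.98 ± 0.29 (SE) on the log2 scale in GM-TNFa-DC, or 15.8-fold (adjusted p = 0.00462), and by 3.80 ± 0.29 in GM-DC, or 14.0-fold (adjusted p = 0.00541). The low levels sit in the range of background, where a fold is compressed, so neither fold is exact. The drop was alike on the array numbers, with log2 differences of -4.12 and -3.84 on numbers 1 and 2 for GM-TNFa-DC, and of -3.83 and -3.78 for GM-DC. The call against GM-MPP was lost without GM-MPP number 2 (adjusted p = 0.0540 in GM-TNFa-DC and 0.0665 in GM-DC), and in GM-DC also without GM-MPP number 1 (adjusted p = 0.0519).

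Flt3, the Flt3 ligand receptor, kept a level well above the array medians in dendritic cells while falling against the progenitors. Its 1 probe set read 6.66 and 6.64 in GM-TNFa-DC, 6.42 and 6.42 in GM-DC, and 7.88 and 8.92 in GM-MPP. All 4 dendritic cell arrays lay at percentiles 70.8 to 74.0, and the spread was almost entirely in the progenitors, whose 2 arrays differed by 1.04. Flt3 fell by 1.75 ± 0.36 in GM-TNFa-DC, or 3.37-fold (adjusted p = 0.0481), and by 1.98 ± 0.36 in GM-DC, or 3.95-fold (adjusted p = 0.0443). Both calls were marginal. Adjusted over all 45037 probe sets that are no controls, neither passed (adjusted p = 0.0560 and 0.0522), and both were lost without any 1 of the 6 arrays (adjusted p from 0.0558 to 0.135 in GM-TNFa-DC and from 0.0519 to 0.170 in GM-DC).

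Igf1r, the IGF-1 receptor, was measured by 5 probe sets, and all 5 were lower on each dendritic cell array than on either GM-MPP array. The brightest read 7.66 and 7.97 in GM-TNFa-DC, 7.32 and 8.32 in GM-DC, and 9.07 and 9.92 in GM-MPP. The difference was -1.68 ± 0.44 in GM-TNFa-DC (adjusted p = 0.0863) and -1.67 ± 0.44 in GM-DC (adjusted p = 0.104), and neither passed. The 95% intervals of these changes, -2.78 to -0.58 and -2.78 to -0.57, are not adjusted for the number of genes. In the fit over all probe sets, 2 of the 5 fell in GM-TNFa-DC, 1426565_at by 1.88 ± 0.34 (adjusted p = 0.0409) and 1446303_at by 1.62 ± 0.31 (adjusted p = 0.0482). In GM-DC the same 2 had differences of -1.87 ± 0.34 (adjusted p = 0.0515) and -1.54 ± 0.31 (adjusted p = 0.0682). The dimmest, 1452108_at, had the smallest changes, -0.83 ± 0.16 and -0.66 ± 0.16. Over the 6 arrays the 5 probe sets correlated at r = 0.937 to 0.991 (10 pairs), a description of probe sets read from the same libraries.

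Il6ra, the interleukin-6 binding chain, was also lower in every dendritic cell array, with no call. Its brighter probe set stood at 6.46 and 5.24 in GM-TNFa-DC, 6.74 and 6.76 in GM-DC, and 7.58 and 8.48 in GM-MPP. The difference was -2.18 ± 0.48 in GM-TNFa-DC (adjusted p = 0.0596) and -1.28 ± 0.48 in GM-DC (adjusted p = 0.209). The 5.24 on GM-TNFa-DC number 2 was the lowest of the 6 values, and that array differed from its GM-MPP counterpart by -3.24, against -1.12 on number 1. The dimmer probe set, 1422270_a_at, did not show that step: it read 5.56 and 5.72 in GM-TNFa-DC, 5.62 and 5.78 in GM-DC, and 6.07 and 6.48 in GM-MPP, with differences of -0.64 ± 0.22 and -0.58 ± 0.22 that did not pass (adjusted p = 0.181 and 0.246). The 2 probe sets correlated at r = 0.811 over the 6 arrays.

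**Figure D2:**
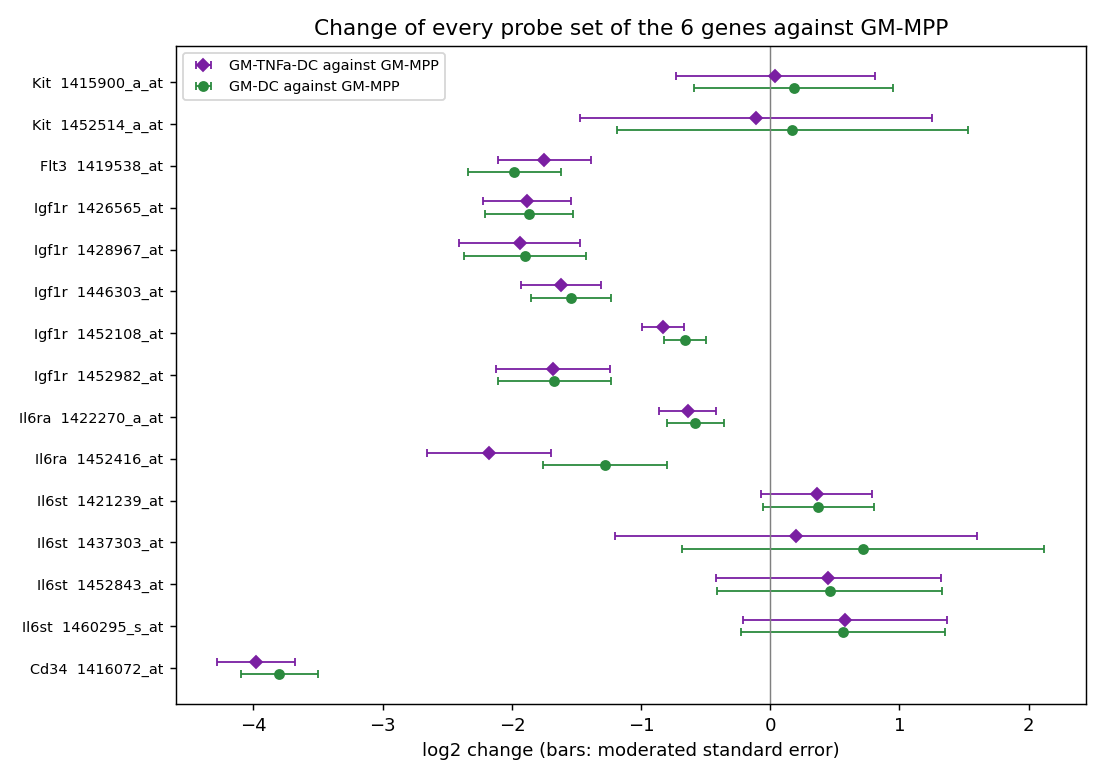
Log2 change against GM-MPP (horizontal axis, bars give the moderated SE) of each of the 15 probe sets, with purple diamonds for GM-TNFa-DC and green circles for GM-DC. All 9 probe sets of Flt3, Igf1r, Il6ra and Cd34 lie left of 0 in both comparisons, while the bars of the 6 of Kit and Il6st span 0.

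Counted by probe set, the 9 of Cd34, Flt3, Igf1r and Il6ra were lower on both arrays of GM-TNFa-DC and of GM-DC than on both of GM-MPP (background 24.0% and 24.9% of probe sets). Of all 15, 3 fell in GM-TNFa-DC and 1 in GM-DC, against 2.78% and 1.63% of probe sets.

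Kit gave no common answer for the dendritic cells, because its level depended on the array number. Its brighter probe set read 5.43 on number 2 and 8.66 on number 1 of GM-TNFa-DC, and 5.65 on number 2 and 9.0 on number 1 of GM-DC. GM-MPP lay between, at 7.22 on number 2 and 7.09 on number 1. Kit was thus below the progenitors on the number-2 arrays, by -1.79 in GM-TNFa-DC and -1.57 in GM-DC, and above them on the number-1 arrays, by 1.57 and 1.9. Averaged over numbers it differed by -0.11 ± 1.40 in GM-TNFa-DC (adjusted p = 0.971, 95% interval -3.58 to 3.36) and 0.17 ± 1.40 in GM-DC (adjusted p = 0.960, -3.30 to 3.64). The dimmer probe set, 1415900_a_at, had the same order: 5.24 and 6.92 on numbers 2 and 1 of GM-TNFa-DC, 5.24 and 7.21 on those of GM-DC, and 6.16 and 5.92 on those of GM-MPP.

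Il6st, the gp130 signalling chain, split in the same way. Its brightest probe set read 6.69 on number 2 and 8.96 on number 1 of GM-TNFa-DC, 6.93 on number 2 and 8.74 on number 1 of GM-DC, and 7.52 and 7.24 on those of GM-MPP. The mean difference was 0.45 ± 0.89 in GM-TNFa-DC (adjusted p = 0.792) and 0.46 ± 0.89 in GM-DC (adjusted p = 0.816). All 4 Il6st probe sets were lower on number 2 than on number 1 in both dendritic cell groups, by -0.90 to -4.50, and slightly higher on number 2 in GM-MPP, by 0.14 to 0.48. The widest gap belonged to 1437303_at in GM-TNFa-DC, with 5.07 on number 2 and 9.57 on number 1. Over the 6 arrays Kit and Il6st correlated at r = 0.959, and Flt3, Igf1r and Cd34 with each other at 0.932 to 0.947. These are descriptions over arrays that share groups and numbers.

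**Figure D3:**
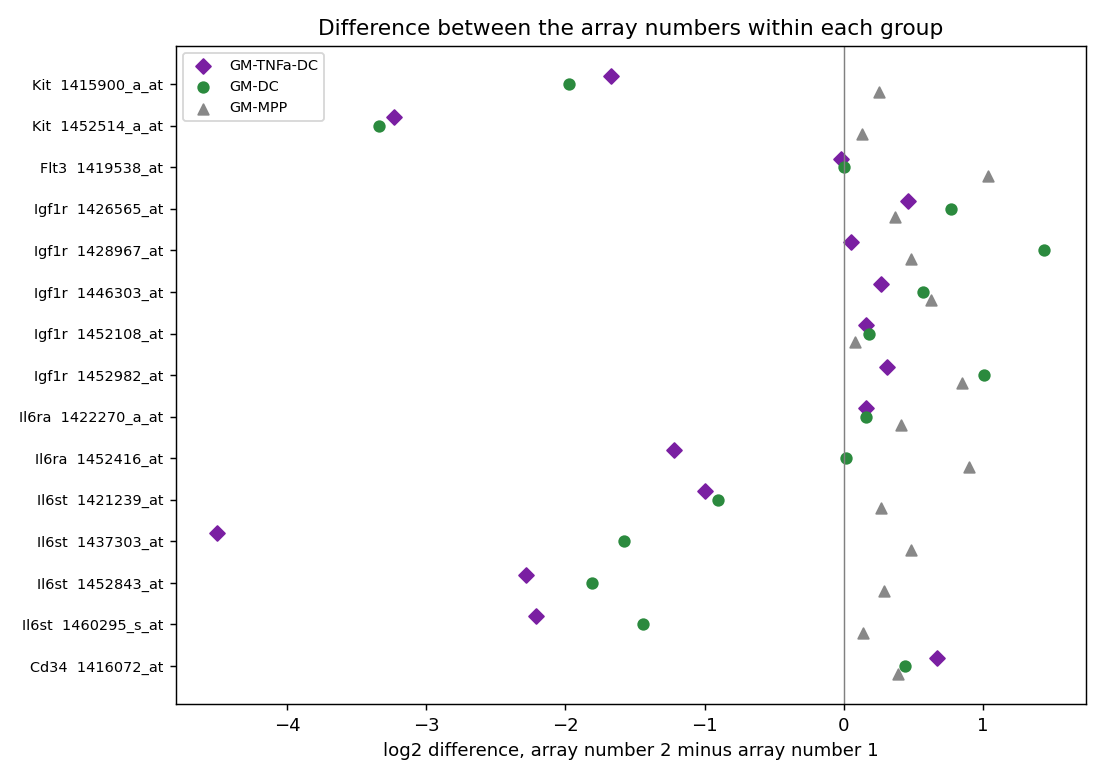
Log2 difference of array number 2 minus array number 1 (horizontal axis) within GM-TNFa-DC (purple diamonds), GM-DC (green circles) and GM-MPP (grey triangles) for each of the 15 probe sets. The 6 probe sets of Kit and Il6st are negative in both dendritic cell groups, from -0.90 to -4.50, and between 0.13 and 0.48 in GM-MPP.

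The difference between numbers was tested on the 4 dendritic cell arrays, with the group in the model and 1 residual degree of freedom. The labels do not say whether GM-TNFa-DC and GM-DC arrays of the same number share a culture, animal or day. If they do, each number is 1 source, and these errors and p-values cover only the spread within it. Kit was lower on number 2 by -3.29 ± 0.14 on the log2 scale (9.76-fold, adjusted p = 0.00187) and Il6st by -2.05 ± 0.17 (4.13-fold, adjusted p = 0.00475), each in both groups. Over all genes 5.41% were lower and 6.41% higher on number 2, so such calls were common. Of the 15 probe sets 5 passed, both of Kit and 3 of Il6st, against 3.45% of all probe sets lower. Flt3 did not move with the number (-0.01 ± 0.14, adjusted p = 0.976). Cd34 (0.56 ± 0.13, adjusted p = 0.0586), Igf1r (0.66 ± 0.21, adjusted p = 0.121) and Il6ra (-0.60 ± 0.32, adjusted p = 0.308) did not pass.

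Whether the change from GM-MPP to dendritic cells differed between the numbers was tested as an interaction over the 6 arrays. GM-MPP has 1 array per number, so the only residual degree of freedom comes from the 4 dendritic cell arrays and the spread of GM-MPP was assumed to be like theirs, not measured. It passed for Kit (-3.41 ± 0.25, adjusted p = 0.0226) and Il6st (-2.33 ± 0.30, adjusted p = 0.0372), against 0.923% of genes lower in that sense, and in the fit over all probe sets for 1 of the 15 (0.304% of all). Flt3 (-1.05 ± 0.25, adjusted p = 0.115), whose numbers differed only in GM-MPP, and the other 3 members did not pass. In the test of the number on the 4 dendritic cell arrays, 5.41% of all genes were lower on number 2 and 6.41% higher. With the array number came 11 of 12 dendritic cell markers, all lower on number 2, with a median of -1.85. Their summed linear level was 17900 on number 2 and 63720 on number 1 of GM-TNFa-DC, 14630 and 49170 on those of GM-DC, and 817.5 and 676.2 on those of GM-MPP. Markers of other cell types also moved with the number, in both directions, and those given here were named after their values were seen. Of 10 monocyte and macrophage markers 2 were higher and 2 lower on number 2, among them Cd14 (4.85 ± 0.14), an endotoxin co-receptor, and Mrc1 (-3.43 ± 0.13), the mannose receptor. Of 9 neutrophil markers 3 were higher and 3 lower, among them Lcn2 (4.26 ± 0.28), an iron-scavenging protein, and S100a9 (-2.88 ± 0.29), a calcium-binding protein. Of 7 plasmacytoid dendritic cell markers 2 were higher, of 8 progenitor markers 2 were higher and 2 lower, and of 8 lymphoid markers none was called. In GM-MPP, with 1 array per number, the labelling controls were brighter on number 1 too. Kit differed there by 0.13 and Il6st by 0.29 (number 2 minus number 1). The part of these marker differences and of the labelling controls in the lower Kit and Il6st levels was not tested.

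Mast cells keep Kit at high levels, so their markers are given beside it. Of 15 measured mast cell and basophil markers, 5 fell in GM-TNFa-DC and 3 in GM-DC against GM-MPP (4.26% and 2.63% of all genes), and none rose (2.77% and 1.87%). They included Mcpt8 (-3.27 ± 0.37 and -3.08 ± 0.37), a basophil protease, and Ms4a2 (-3.06 ± 0.35 and -2.93 ± 0.35), the beta chain of the IgE receptor. The summed linear level was 479.7 on number 2 and 485.1 on number 1 of GM-TNFa-DC, 438.8 and 642.5 on those of GM-DC, and 2288 and 2262 on those of GM-MPP. On each dendritic cell array 10 of the 15 lay below the array median, and on each GM-MPP array 8 did. Tpsb2, Mcpt4, Fcer1a and Mrgprb1 were among those below it on all 6 arrays, GM-MPP included. Cpa3, Cma1, Mcpt8, Hdc and Gata2 stayed above it on every dendritic cell array. Cpa3, a mast cell carboxypeptidase, was the only marker called for the array number (-1.08 ± 0.17, adjusted p = 0.0224), where 5.41% of all genes were lower. It stood at 6.42 on number 2 and 7.29 on number 1 of GM-TNFa-DC and at 6.62 and 7.91 on those of GM-DC. All 4 values were below the 9.73 and 10.04 of GM-MPP.

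TNFa added to the GM-CSF culture gave no call on any of the 6 genes. Over all genes 0 passed in either direction (limma), against 1.48% higher and 0.77% lower at an unadjusted p under 0.05, and none of the 6 members had an unadjusted p under 0.05. The largest difference was that of Il6ra, -0.90 ± 0.48 in GM-TNFa-DC against GM-DC, with both arrays lower (10.6% of all genes), a 95% interval of -2.10 to 0.31 and a step seen on 1 array and 1 of 2 probe sets. Flt3 was higher on both GM-TNFa-DC arrays than on both GM-DC arrays, by 0.23 ± 0.36 with an interval of -0.66 to 1.12 (14.9% of all genes had both arrays higher). Cd34 differed by -0.17 ± 0.29 (-0.91 to 0.56) and Igf1r by -0.01 ± 0.44 (-1.11 to 1.09). For Kit (-0.28 ± 1.40) and Il6st (-0.01 ± 0.89) the intervals of -3.75 to 3.19 and -2.22 to 2.20 are wide because this fit counts the split by array number as spread. Within each number Kit differed by -0.34 and -0.22, and Il6st by 0.22 and -0.24, on numbers 1 and 2. With the number as a block on these 4 arrays, an alternative chosen after seeing the data, the difference was -0.28 ± 0.14 for Kit (adjusted p = 0.647) and -0.01 ± 0.17 for Il6st (adjusted p = 0.990), with 1 residual degree of freedom.

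GM-MPP had the highest group mean for Cd34, Flt3, Igf1r and Il6ra. Below it, GM-TNFa-DC lay under GM-DC for Il6ra and GM-DC under GM-TNFa-DC for Flt3. No order of GM-TNFa-DC and GM-DC can be read for Igf1r, whose difference of -0.01 turned to 0.03 with the quantile normalization repeated, or for Cd34, whose levels there are in the range of background. For Kit and Il6st the arrays of GM-TNFa-DC and GM-DC overlapped with each other and with those of GM-MPP, and no order is given. The arrays of GM-TNFa-DC and GM-DC also overlapped for Cd34 and Igf1r. Past the threshold, the neighbours in the order differed only for Cd34 and Flt3, and only against GM-MPP.

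Genes of the same pathways gave the following picture. Of 10 measured ligand genes none passed against GM-MPP, although all 10 had higher means in both dendritic cell groups (median 0.50 in each, against 0.05 and 0.02 over all genes). Kitl, Igf2, Il11, Lif, Ctf1 and Clcf1 stayed at 5.30 or lower on all 6 arrays, near or below the array medians. Their differences were as small as 0.04 (Clcf1 in GM-TNFa-DC) and 0.10 (Il11 in GM-DC). Igf1, Il6, Ebi3 and Osm reached higher levels. Igf1, a ligand of Igf1r, stood at 7.47 and 6.24 on numbers 2 and 1 of GM-TNFa-DC, at 7.75 and 6.66 on those of GM-DC, and at 5.28 and 4.29 on those of GM-MPP. The difference was 2.07 ± 0.60 (adjusted p = 0.104) and 2.42 ± 0.60 (adjusted p = 0.0884). The interleukin-6 gene Il6 ran opposite to Il6st over the numbers, at 8.63 on number 2 and 4.86 on number 1 of GM-TNFa-DC and at 7.17 and 4.64 on those of GM-DC, with 4.16 and 5.15 in GM-MPP. It was higher on number 2 of the dendritic cells by 3.15 ± 0.31 (adjusted p = 0.00729), and its interaction passed (4.14 ± 0.54, adjusted p = 0.0389). Igf1 (1.16 ± 0.14, adjusted p = 0.0127) and Lif (0.70 ± 0.14, adjusted p = 0.0429) were also called higher on number 2. That made 3 of the 10 ligand genes, against 6.41% of all genes, and none was called lower. Kitl, which encodes stem cell factor, stayed between 4.43 and 5.11 on all 6 arrays, around the array medians.

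Related receptors showed no call against GM-MPP among the 3 other class III kinases and 6 receptor chains measured that pair with gp130 or resemble it. Csf1r, the M-CSF receptor, read 12.42 and 12.95 in GM-TNFa-DC, 12.36 and 12.73 in GM-DC, and 8.98 and 11.38 in GM-MPP, with differences of 2.50 ± 0.76 (adjusted p = 0.115) and 2.36 ± 0.76 (adjusted p = 0.153). Csf3r, the G-CSF receptor, had differences of -2.37 ± 0.62 (adjusted p = 0.0856) and -2.10 ± 0.62 (adjusted p = 0.131). Among 11 insulin and IGF genes, 2 rose in GM-TNFa-DC and 1 in GM-DC (2.77% and 1.87% of all genes), and none fell. Igf2r, which takes up IGF-2 and lysosomal enzymes, rose by 1.62 ± 0.28 in GM-TNFa-DC (adjusted p = 0.0334) and by 1.70 ± 0.28 in GM-DC (adjusted p = 0.0358). Its levels were 8.37 and 7.79 in GM-TNFa-DC, 8.29 and 8.03 in GM-DC, and 6.62 and 6.30 in GM-MPP. The docking protein gene Irs1 also rose in GM-TNFa-DC, by 0.59 ± 0.12 (adjusted p = 0.0443), at a level below the array medians.

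Genes downstream of the receptors were counted against the background of 4.26% lower and 2.77% higher in GM-TNFa-DC, and 2.63% and 1.87% in GM-DC. Of 23 adaptors and kinases of Kit and Flt3, 1 fell in GM-TNFa-DC and none was called in GM-DC. It was Gab3 (-1.16 ± 0.21, adjusted p = 0.0386), a docking protein. Of 18 negative regulators, 2 phosphatase genes fell in GM-TNFa-DC and none in GM-DC: Ptpn6, which encodes SHP-1 (-1.02 ± 0.21, adjusted p = 0.0473), and Inpp5d, which encodes SHIP (-1.19 ± 0.24, adjusted p = 0.0452). In GM-DC the values were -0.40 ± 0.21, -0.85 ± 0.21 and -0.73 ± 0.24, and none of the 3 differed past the threshold between GM-TNFa-DC and GM-DC. Of 16 genes of the gp130 JAK-STAT pathway, 3 rose in GM-TNFa-DC and none was called in GM-DC, and 15 had higher means in each. The feedback inhibitors Socs1 and Socs3 rose by 2.04 ± 0.34 and 1.98 ± 0.39 in GM-TNFa-DC (adjusted p = 0.0302 and 0.0441), and Junb, a transcription factor gene, by 1.97 ± 0.40 (adjusted p = 0.0475). In GM-DC the values were 1.31 ± 0.34, 1.84 ± 0.39 and 0.98 ± 0.40. The sheddase gene Adam17, whose product releases the outer part of membrane receptors including the interleukin-6 receptor, rose by 1.43 ± 0.21 in GM-TNFa-DC (adjusted p = 0.0244), with 0.81 ± 0.21 in GM-DC (adjusted p = 0.104). It read 10.54 and 10.54 in GM-TNFa-DC, 9.74 and 10.10 in GM-DC, and 9.01 and 9.21 in GM-MPP.

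The same pathway lists held many genes that moved with the array number of the dendritic cells. Of the 23 adaptors and kinases, 6 were lower and 2 higher on number 2, of the 18 negative regulators 5 and 3, and of the 16 JAK-STAT genes 6 and 0, against the 5.41% lower and 6.41% higher over all genes. Fyn, a Src-family kinase gene, was lower by -2.90 ± 0.22 (adjusted p = 0.00389), at 5.96 on number 2 and 9.24 on number 1 of GM-TNFa-DC, 6.52 and 9.05 on those of GM-DC, and 6.96 and 6.87 on those of GM-MPP. Genes singled out after their values were seen were Sla (-2.11 ± 0.15) and Socs6 (-2.17 ± 0.14), which restrain receptor kinases, and Stat5a (-2.14 ± 0.38), all lower on number 2. Spry2 (2.33 ± 0.17) and Spred2 (1.98 ± 0.15), inhibitors of the Ras pathway, were higher on number 2.

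**Figure D4:**
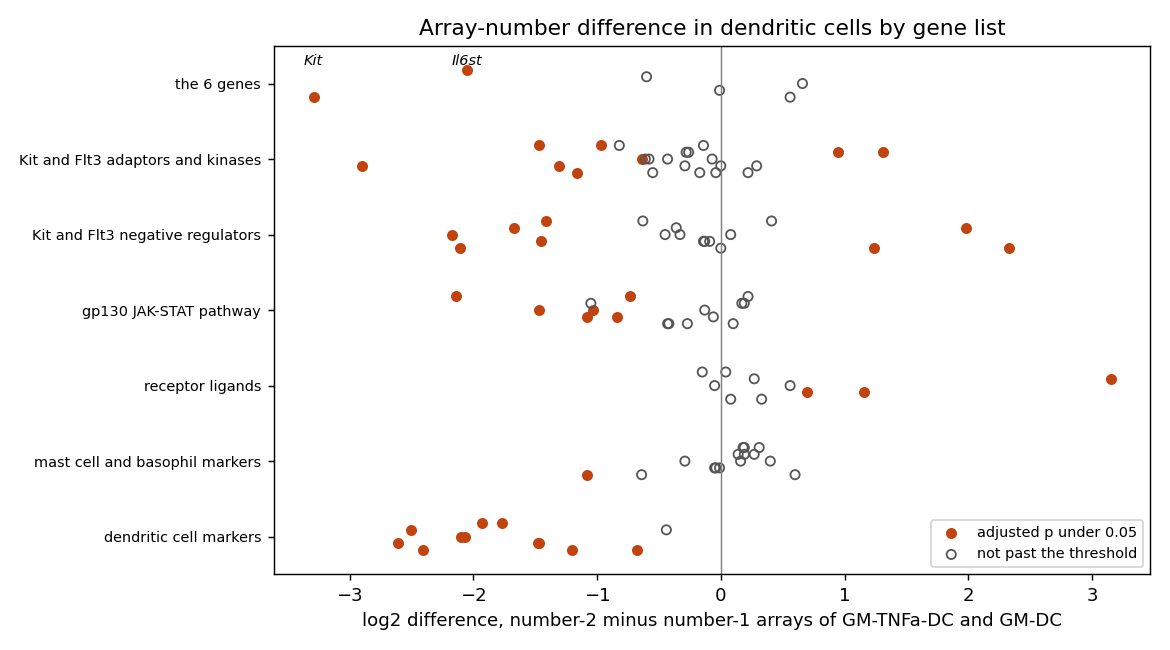
Log2 difference of the number-2 minus the number-1 arrays of GM-TNFa-DC and GM-DC (horizontal axis) for the 6 genes and for the members of 6 gene lists (rows), with filled points past the threshold and open points not. Kit at -3.29 and Il6st at -2.05 lie with 11 of 12 dendritic cell markers on the lower side. Called are 3 of 10 ligand genes on the higher side and 1 of 15 mast cell and basophil markers on the lower side. The shares of all genes were 5.41% lower and 6.41% higher.

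Other progenitor surface genes did not move as a block with Cd34. Of 17 measured, 4 rose and 2 fell in GM-TNFa-DC (2.77% and 4.26% of all genes), and 3 rose and 1 fell in GM-DC (1.87% and 2.63%). Il7r, the interleukin-7 receptor, rose by 5.76 ± 0.27 and 5.56 ± 0.27, and the tetraspanin Cd9 by 2.45 ± 0.16 and 2.65 ± 0.16. Itga2b, which encodes CD41, fell (-2.20 ± 0.31 and -2.12 ± 0.31). Procr, the protein C receptor and a stem cell marker, rose in GM-TNFa-DC by 7.11 ± 1.23 (adjusted p = 0.0331), with 6.06 ± 1.23 in GM-DC (adjusted p = 0.0589). The Cd34 relatives Podxl and Podxl2 stayed below the array medians on all 6 arrays, and neither passed.

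Of 17 transcription factors reported to act on Kit, Flt3 or Cd34, 6 fell and 1 rose in GM-TNFa-DC, and 3 fell and 1 rose in GM-DC, with medians of -1.28 and -1.01. Over all genes, 4.26% fell and 2.77% rose in GM-TNFa-DC, and 2.63% and 1.87% in GM-DC, with medians of 0.05 and 0.02. Myb, a factor of progenitor growth, fell (-6.81 ± 0.52 and -6.42 ± 0.52), as did Hoxa9 (-4.29 ± 0.28 and -4.12 ± 0.28) and its partner Meis1 (-2.03 ± 0.27 and -1.59 ± 0.27). Myb, Hoxa9 and Meis1 are also among the progenitor markers used above to check the cell labels. The factor that rose, named after its value was seen, was Mitf (1.57 ± 0.26 and 1.72 ± 0.26), which acts in mast cells and pigment cells. Lyl1 fell in GM-TNFa-DC (-2.89 ± 0.38, adjusted p = 0.0185), with -2.0 ± 0.38 in GM-DC (adjusted p = 0.0501).

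The genes most like each member were taken by Pearson's r over the 6 arrays among 5517 genes whose arrays spanned at least 1 on the log2 scale. For Kit they were Mical1 (r = 0.9938), Calhm2 (0.9921) and Glce (0.9901), and for Il6st Rgs10 (0.9945), Fyn (0.9944) and Orai3 (0.9890). Flt3 was nearest to Ssbp2 (0.9967), Anks1 (0.9962) and Gria3 (0.9938), Cd34 to Mnd1 (0.9975), Psmg1 (0.9974) and Wrap53 (0.9970), Igf1r to Gstcd (0.9933), C1qa (0.9928) and C1qc (0.9922), and Il6ra to Qk (0.9822), Ldlrad3 (0.9821) and Tnrc6b (0.9814). With 6 arrays of 3 groups such values are common: 549 genes exceeded 0.95 with Cd34, 152 with Flt3, 72 with Igf1r, 54 with Il6st, 41 with Kit and 13 with Il6ra. Mical1, which encodes an actin-regulating oxidase, stood at 7.76 on number 2 and 9.40 on number 1 of GM-TNFa-DC, 7.83 and 9.77 on those of GM-DC, and 8.57 and 8.52 on those of GM-MPP. C1qa and C1qc encode chains of complement C1q.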

How the data were processed

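Total RNA of cultured cells was labelled and hybridised to Affymetrix arrays, per the labels' protocols. The authors deposited log2 values, made with RMA (a method that corrects background, normalizes quantiles and summarises each probe set) per the submitters' processing notes. Its version is not given in the sources used here, nor which arrays were normalized together, and the log2 scale was inferred from the range of 1.89 to 14.4. No detection call was used. Precision is limited by the number of arrays.

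Of 45101 probe sets, 64 were controls, 34945 had 1 gene symbol, 932 several and 9160 none listed. Symbols were updated through Entrez identifiers to the RefSeq table of GRCm38.p6 (34741 matched). A gene was represented by its probe set with the highest mean, which gave 18193 genes. The 6 members have 15 probe sets, none shared with another symbol.

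The test was limma's moderated test (version 3.58.1, R 4.3.3) with a trend in intensity over 3 groups and 3 residual degrees of freedom, adjusted by Benjamini-Hochberg over all genes or all 45037 probe sets that are not controls, with a threshold of 0.05. The array number was tested on the 4 dendritic cell arrays and as an interaction with cell type. Errors after ± are moderated standard errors. The fit was tested on simulated arrays.

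The members, lists and tests were chosen with earlier results of these data known. Named were the members, from each list at most 4 called genes by size of change (at most 2 where none was called), ligands and related receptors, and the 3 genes most correlated with each member. Alternatives were averaging the probe sets of each gene, no trend, a robust fit, arrays centred on their medians, a second quantile step, a filter on dim genes, the array number as a block, a fit of just the 4 arrays compared, a minimum change of 2-fold, and dropping each array. Python 3.11.15 and matplotlib 3.10.9 prepared tables and plots.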

Additional observations from a re-analysis of the deposited data

Results flagged for a closer look

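In 2 of the 6 genes the change from GM-MPP to dendritic cells differed between the array numbers by the test of that difference. The number-2 minus number-1 difference of the dendritic cells, minus that of the progenitors, was -3.41 for Kit (± 0.25 SE, adjusted p = 0.0226) and -2.33 for Il6st (± 0.30 SE, adjusted p = 0.0372), with both dendritic cell groups lower on number 2 for each gene. The fit has 1 residual degree of freedom, which comes from the dendritic cell arrays alone, and 0.923% of all genes were called lower in the same test. In the fit over all probe sets the brighter Kit probe set passed (adjusted p = 0.0344), while the other Kit probe set (-2.07 ± 0.31, adjusted p = 0.0664) and the 4 of Il6st did not (adjusted p from 0.0594 to 0.269).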

How the results depend on the processing

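Cd34 and Flt3 kept their lower sign against GM-MPP under every alternative that gave a value. Of the 2 members called lower, 1 was called in GM-TNFa-DC and 1 in GM-DC with the quantile normalization repeated, without dim genes (which leaves out Cd34), in the fit of only the 4 arrays compared and with the block on those 4 arrays, an alternative chosen after seeing the data. Without single arrays 0 to 1 were called in each. With the array number as a replicate block, 3 were called lower in each, Igf1r being added (adjusted p = 0.0215 and 0.0267). Same-numbered arrays deviated together between GM-TNFa-DC and GM-DC (r = 0.713 over probe sets) but hardly with GM-MPP (0.065 and 0.113), so the numbers are not taken to pair all samples. Over all genes the main fit called 504 higher and 775 lower in GM-TNFa-DC, against 850 and 1210 with the block, 144 and 116 with the block on 4 arrays, 303 and 446 on those 4 arrays without it, and 37 to 303 and 51 to 457 without single arrays. In GM-DC it called 340 and 479, against 627 and 849 with the block, 151 and 125 with the block on 4 arrays, and 20 to 346 and 30 to 371 without single arrays. Kit changed sign without 1 array, with values from -1.50 to 1.84 in GM-DC, -1.73 to 1.5 in GM-TNFa-DC and -1.95 to 1.39 between these, and so did Il6st (-0.45 to 1.36, -0.69 to 1.58 and -1.15 to 1.13). Between GM-TNFa-DC and GM-DC, Igf1r ranged from -0.51 to 0.50 and Cd34 from -0.51 to 0.16, and the repeated quantile normalization turned Igf1r to 0.03 and Il6st to 0.02. In that comparison 0 genes were called in every fit.

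In the array-number test Kit and Il6st were called in all 6 alternatives. Averaging each gene's probe sets added 1 member called higher, Cd34 (adjusted p = 0.0464), and the repeated quantile normalization turned Flt3 to 0.04. In the interaction, averaging probe sets left 1 member called, Kit, with Il6st at an adjusted p = 0.0998 and Igf1r turned to 0.04, and the repeated quantile normalization called 267 genes lower in place of 168. Leaving out arrays was not possible in these fits, since no residual degree of freedom is left. A group left with 1 array borrowed its spread from the others. The causes of these changes were not tested, and fewer arrays also leave fewer degrees of freedom. Dim genes, such as Cd34 in dendritic cells, are limited by background.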

Other observations

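Further genes linked to progenitors split by the array number in dendritic cells, and were singled out after their values were seen. Prom1, which encodes the stem cell marker CD133, was higher on number 2 by 3.52 ± 0.18 (adjusted p = 0.00200), at 9.10 on number 2 and 5.84 on number 1 of GM-TNFa-DC, 9.47 and 5.69 on those of GM-DC, and 8.68 and 8.61 on those of GM-MPP. Procr was also higher on number 2 (2.86 ± 0.17, adjusted p = 0.00288), at 11.88 and 9.30 in GM-TNFa-DC, 11.11 and 7.98 in GM-DC, and 3.29 and 3.67 in GM-MPP. Erg, an Ets factor of stem cells, was higher by 1.80 ± 0.18 (adjusted p = 0.00770). Cebpa, a granulocyte and monocyte factor, was lower on number 2 by -2.30 ± 0.14 (adjusted p = 0.00288), at 6.57 and 8.82 in GM-TNFa-DC, 6.85 and 9.20 in GM-DC, and 9.26 and 9.02 in GM-MPP. Among the 17 other progenitor surface genes measured, 2 were higher on number 2 (Prom1 and Procr) and 2 lower (Cd48 and Cd244a). The shares of all genes were 6.41% higher and 5.41% lower. Cd48 (-1.67 ± 0.14, adjusted p = 0.00459) and Cd244a (-1.85 ± 0.16, adjusted p = 0.00511) thus went in the direction of Kit. The progenitor surface genes did not share 1 direction: Kit, Cd48 and Cd244a were lower on number 2 where Prom1 and Procr were higher.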
